A study of Arabidopsis thaliana with 6 samples.

Results

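The subject here is a run of 6 neighbouring loci on chromosome 5 of Arabidopsis thaliana, AT5G52720, AT5G52730, AT5G52740, AT5G52750, AT5G52760 and AT5G52770, which are known as genes of the heavy-metal-associated domain. They were chosen by locus identifier, and each has 1 probe on the array, so 6 of the 35475 gene identifiers of the array belong to the cluster. In the TAIR10.1 gene table of RefSeq the 6 loci follow each other with no other gene model between them, each as a protein-coding gene with no symbol. The table gives no domain, and no protein sequence was used here, so the heavy-metal-associated label was not checked against sequence. The loci were chosen because neighbours in the run were strongly lower in the overexpressor, so their differences between the groups are given below as a description with no p-value. The limma calls of these loci are counted only beside the share over all genes.

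Total RNA came from whole seedlings 14 days old, grown on medium with 14 hours of light and then 10 of darkness each day. One group carried a transgene that overexpresses sORF2146, a short open reading frame that the series title traces to mitochondria, and the other carried the empty pMDC32 vector. There were 3 biological replicates per group, each on 1 one-colour Agilent array. The promoter of the transgene, the number of independent lines and the number of seedlings per sample are not given in the sources used here, although pMDC32 is known as an overexpression vector with a constitutive 35S promoter. In whole seedlings, fewer cells of a type and less RNA per cell cannot be told apart.

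The heavy-metal-associated domain is a small fold that binds copper, zinc or other metal ions through a pair of cysteines. In plants it occurs in copper chaperones such as ATX1 and CCH, in metal-pumping ATPases, and in a large plant family in which many members carry a lipid anchor added by isoprenylation at the C-terminus. Some members of that family are known for responses to metals, cold, drought or pathogens.

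The scanner software flagged from 23270 to 24508 of the 35635 probes of an array as well above background, no spot was saturated, and the array's 75th percentile of signal lay between 817 and 1170. The 3 overexpressor arrays lay on 1 slide and the 3 control arrays on another, and the effects of slide and of group cannot be told apart. Replicates 1, 2 and 3 of a group also sat at positions 1, 2 and 3 of its slide, so replicate and position cannot be told apart either. Leaf markers were bright in both groups, and 5 of 5 differed by between -0.30 and 0.03 on the log2 scale. Of 5 root markers, 4 differed by between -0.11 and 0.41 and TIP2;3, a tonoplast water channel, by -1.81 (SE 0.51, limma adjusted p = 0.085). AP1 of the floral markers and CRA1 of the seed markers were on none of the 6 arrays well above background, while EM1, an embryo protein gene, was so on the control arrays alone.

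The array values of the 6 loci were as follows, as processed signal, which is spot intensity after background subtraction within the array. AT5G52760 had signals of 23.7, 116 and 171 on the 3 overexpressor arrays and of 3842, 1434 and 923 on the 3 control arrays. Every control array was above every overexpressor array, and overexpressor replicate 1 was the lowest of the 6. After each array was scaled to its 75th percentile, the log2 level was -3.54 ± 1.62 (SD, n = 3) in the overexpressor and 0.61 ± 1.01 (SD, n = 3) in the control. The difference was -4.15 (SE 0.91), a level 17.8-fold lower.

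AT5G52750, the neighbour of AT5G52760, had signals of 68.2, 175 and 246 in the overexpressor and of 1898, 837 and 450 in the control. The groups did not overlap, and again the lowest array was overexpressor replicate 1 and the highest was control replicate 1. The scaled log2 level was -2.66 ± 1.06 (SD, n = 3) against -0.33 ± 0.996 (SD, n = 3), a difference of -2.33 (SE 0.70) or 5.02-fold. The gap between the lowest control array and the highest overexpressor array was 1.53-fold after scaling, smaller than the range inside the overexpressor group, 3.92-fold, or the control group, 3.96-fold. For AT5G52760 the same gap was 4.51-fold, against ranges of 7.84-fold in the overexpressor and 3.91-fold in the control.

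AT5G52770, at the far end of the run, had signals of 6.36, 14.8 and 18.6 in the overexpressor and of 227, 80.8 and 51.3 in the control. It was well above background on 2 of 3 overexpressor arrays, all but replicate 1, and on all 3 control arrays. The groups did not overlap, with a gap of 2.30-fold. The scaled log2 level was -6.23 ± 0.92 (SD, n = 3) against -3.52 ± 1.05 (SD, n = 3), a difference of -2.71 (SE 0.67) or 6.54-fold. This fold takes overexpressor replicate 1 at its signal near the background, and without that array it was 4.53.

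AT5G52740 had signals of 2.04, 1.92 and 1.91 in the overexpressor, none well above background, and of 65.8, 17.5 and 18.1 in the control, all well above it. AT5G52730 showed the same picture, with 1.79, 2.20 and 2.62 in the overexpressor, none well above background, and 51.3, 11.3 and 36.9 in the control. In both, every control array was above every overexpressor array, and the overexpressor level has only an approximate upper limit. The fitted differences of -3.50 (SE 0.50) for AT5G52740 and -3.36 (SE 0.57) for AT5G52730 depend on signals at the background and are not sizes of change.

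As approximate bounds, AT5G52740 was 2.66-fold lower or more and AT5G52730 2.68-fold lower or more in the overexpressor. Each bound sets the control mean against an overexpressor mean in which each array takes the higher of its own signal and the lowest signal that was well above background on that array, which lay between 7.96 and 9.23 over the 6 arrays. That lowest signal is not a strict limit, since a spot can lie above it and not be well above background. AT5G52710, next to the run, lay at -6.62 and -6.59 on overexpressor replicates 2 and 3, where the lowest such levels were -6.66 and -6.81. It was well above background on 1 of 3 overexpressor arrays. The bounds also carry no sampling error, and they moved with single control arrays. Without control replicate 1 they were 1.75-fold for AT5G52740 and 2.00-fold for AT5G52730, and without control replicate 2 they were 3.31-fold and 4.18-fold.

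AT5G52720, at the near end of the run, was the one locus whose groups overlapped. Its signals were 14.0, 29.7 and 12.7 in the overexpressor and 111, 17.3 and 52.9 in the control, all well above background. Overexpressor replicate 2 lay above control replicate 2. The scaled log2 level was -5.70 ± 0.80 (SD, n = 3) against -4.59 ± 1.32 (SD, n = 3), and the difference was -1.11 (SE 0.74) or 2.15-fold. The fold was 1.42 without control replicate 1 and 3.52 without control replicate 2.

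**Figure D1:**
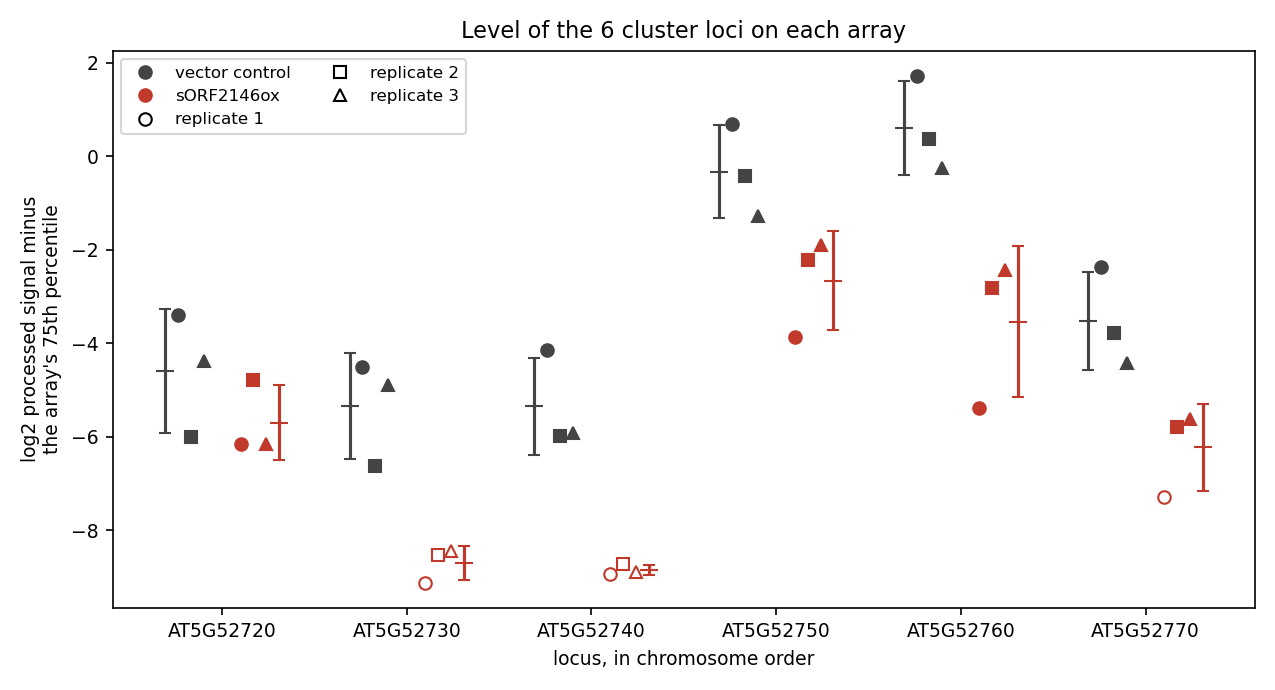
Scaled log2 signal of the 6 loci on each of the 6 arrays, with the group mean and SD beside the points. Filled points were well above background and open points were not. The 3 overexpressor points of AT5G52730 and AT5G52740 are open, and AT5G52720 is the locus whose groups overlap. Levels of different loci come from different probes and are not compared.

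The error that the scanner software assigned to single spots was 10.0% to 18.2% of the signal for the spots of the 6 loci that were well above background. For AT5G52760 it was 12.4% on overexpressor replicate 1, the dimmest of its spots. It was 30.4% for AT5G52770 on that array, and 64.2% to 100.1% for the 6 spots of AT5G52730 and AT5G52740 on overexpressor arrays. This error is that of a spot and does not cover differences between samples or labellings. No spot of the 6 loci was flagged as an outlier.

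All 6 loci passed the filter on dim probes, but AT5G52730, AT5G52740 and AT5G52770 passed through the control group alone, which favours loci that are lower in the overexpressor. Over the 23394 genes tested, limma called 621 lower in the overexpressor, which is 2.65%, and 588 higher, which is 2.51%. The split of calls moved with the scaling, to 488 lower and 779 higher with quantile normalization. Of the 6 loci, AT5G52730 and AT5G52740 were called lower, 2 in all, and 0 were called higher. Groups that did not overlap, with the overexpressor lower, were seen for 5 of the 6 loci and for 17.6% of all genes tested. Because the loci were chosen on this contrast, nothing is read from either count. The median fitted difference of the 6 loci was -3.03, or -1.87 with the 2 bounds in place of fitted values, and that of all genes was 0.03. Among the 22421 genes well above background on all arrays, 12 had a more negative difference than AT5G52760, 126 than AT5G52750 and 655 than AT5G52720. For the same reason, these ranks and medians are descriptions, and nothing is read from them.

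The 2 calls depended on single arrays. Without any 1 of the overexpressor arrays neither AT5G52730 nor AT5G52740 was called. Without control replicate 1 or 3 AT5G52740 alone was called, and without control replicate 2 AT5G52730 alone was called. Over all genes, limma called 1209 in the reported setting and 46, 49 and 51 without overexpressor replicate 1, 2 and 3. It called 1190, 35 and 1191 without control replicate 1, 2 and 3. The loss of calls was thus not particular to these loci. Across the alternatives run, AT5G52740 was called in 8 of 16, AT5G52730 in 7 of 16, AT5G52760 in 3 of 17, and AT5G52720, AT5G52750 and AT5G52770 in 0. The count over all genes ranged from 14 to 1860 in those alternatives. Every locus was lower in the overexpressor in every alternative that tested it. The fold of AT5G52760 was 9.36 without overexpressor replicate 1, and that of AT5G52750 was 3.31. Without control replicate 1, the array that was highest for all 6 loci, the differences were -3.60 for AT5G52760, -1.81 for AT5G52750 and -2.13 for AT5G52770.

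**Figure D2:**
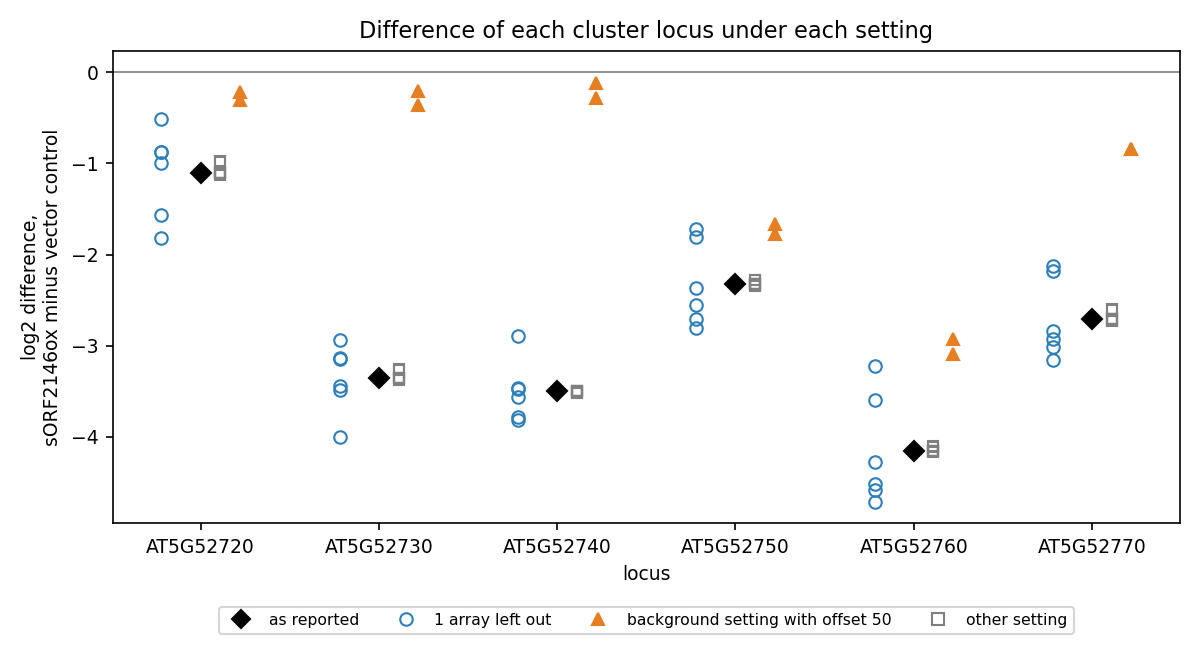
Log2 difference of each locus, overexpressor minus vector control, as reported, with 1 array left out, and under the other settings. All points lie below 0. With a background setting that adds an offset of 50, the differences of AT5G52730 and AT5G52740 shrink to between -0.35 and -0.12, since their signals are of the order of the offset or below it, while AT5G52760 stays at -2.93 and -3.09.

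Within the run, the last 3 loci followed one order across the arrays, which was noticed after the values were seen and which the choice of loci did not use. In AT5G52750, AT5G52760 and AT5G52770 the control arrays stood in the order replicate 1, replicate 2, replicate 3 from high to low, and the overexpressor arrays in the order replicate 3, replicate 2, replicate 1. After the group means were removed, their levels correlated at 0.98 (AT5G52750 with AT5G52760), 0.99 (AT5G52750 with AT5G52770) and 0.96 (AT5G52760 with AT5G52770) over the 6 arrays. That order of arrays was not particular to the run. SARD1, CBP60G and WRKY46, of the salicylic acid and defence genes below, stood in it too, while others of that list, such as PR1, did not. The share of all genes with that order, or with correlations as high, was not counted.

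The first 3 loci shared the control order replicate 1, replicate 3, replicate 2, but no overexpressor order. For AT5G52740 that order rests on control replicates 2 and 3, which were close at -5.99 and -5.92. After the same step AT5G52720 correlated with AT5G52730 at 0.86. AT5G52740 correlated at 0.74 with AT5G52720, at 0.65 with AT5G52730 and at 0.74 with AT5G52770. The other correlations between the first 3 loci and the last 3 ranged from 0.38 to 0.64. These values describe 6 arrays with a shared scaling and 1 slide per group, and they carry no p. Each locus has 1 probe, and whether a probe also picks up signal from another locus of the run was not tested. AT5G52730 and AT5G52740 contribute background signals in the overexpressor.

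**Figure D3:**
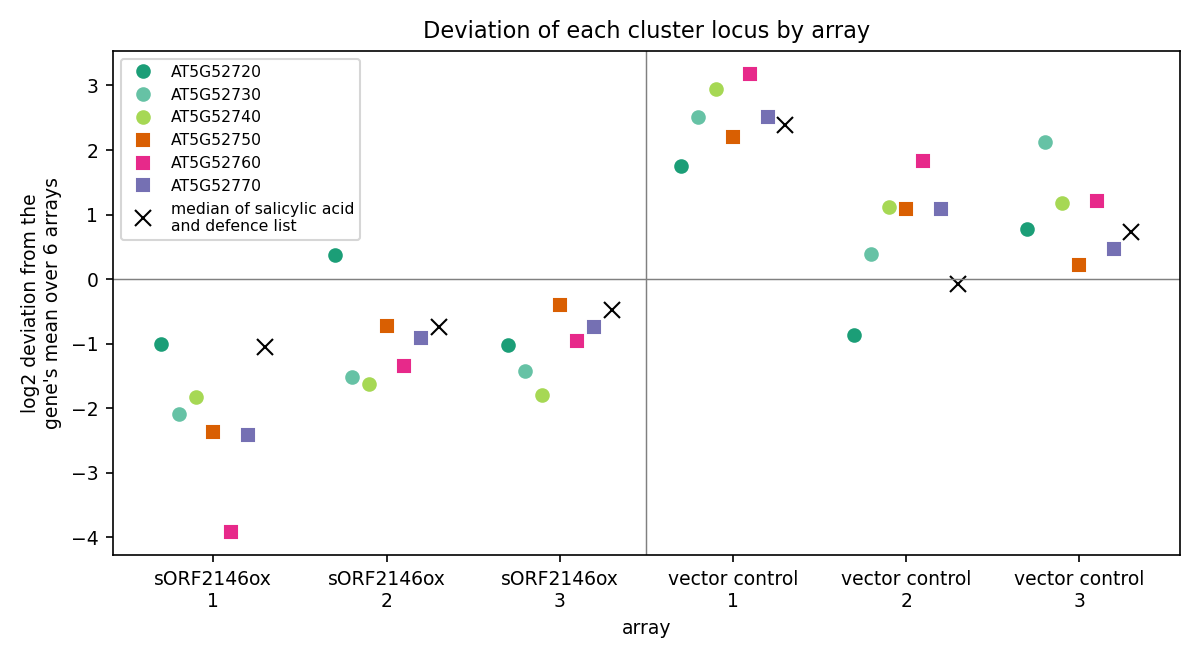
Log2 deviation of each locus from its own mean over the 6 arrays, by array, with the median deviation of the salicylic acid and defence genes as crosses. Circles are the first 3 loci of the run and squares the last 3. On control replicate 2 the squares lie between 1.08 and 1.83 and AT5G52740 lies among them at 1.11, while AT5G52730 is at 0.39 and AT5G52720 at -0.86.

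The flanks of the run were examined with the 10 gene models on each side in the gene table. Of these 20, 16 had a probe and 12 were tested. In the reported setting limma called 0 of the 12, beside 2.65% of all genes tested called lower and 2.51% higher. It called 0 of them in all 17 alternatives as well, where the count over all genes ranged from 14 to 1860. Of the 12, 1 had an unadjusted p under 0.05. That gene was AT5G52710, the next locus before the run. Its log2 levels were -7.31, -6.62 and -6.59 in the overexpressor and -4.17, -5.84 and -5.57 in the control. The groups did not overlap, and it differed by -1.65 (SE 0.48, limma adjusted p = 0.090), or by -1.13 without control replicate 1. It was well above background on 1 of 3 overexpressor arrays.

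The next 3 loci outward, AT5G52700, AT5G52690 and AT5G52680, were on none of the 6 arrays well above background. Whether they differed between the groups is not known. AT5G52670, beyond them, differed by 1.43 (SE 0.78, limma adjusted p = 0.26). On the other side the next locus, AT5G52780, had levels of 2.77, 2.80 and 2.82 in the overexpressor and 2.75, 2.60 and 2.76 in the control. It differed by 0.09 (SE 0.08, limma adjusted p = 0.45). AT5G52790 after it differed by 0.49 (SE 0.44, limma adjusted p = 0.47). The median over the 12 flanking genes was -0.09. Whether the loci of the run differ from their neighbours was not tested, because they were chosen on this contrast.

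**Figure D4:**
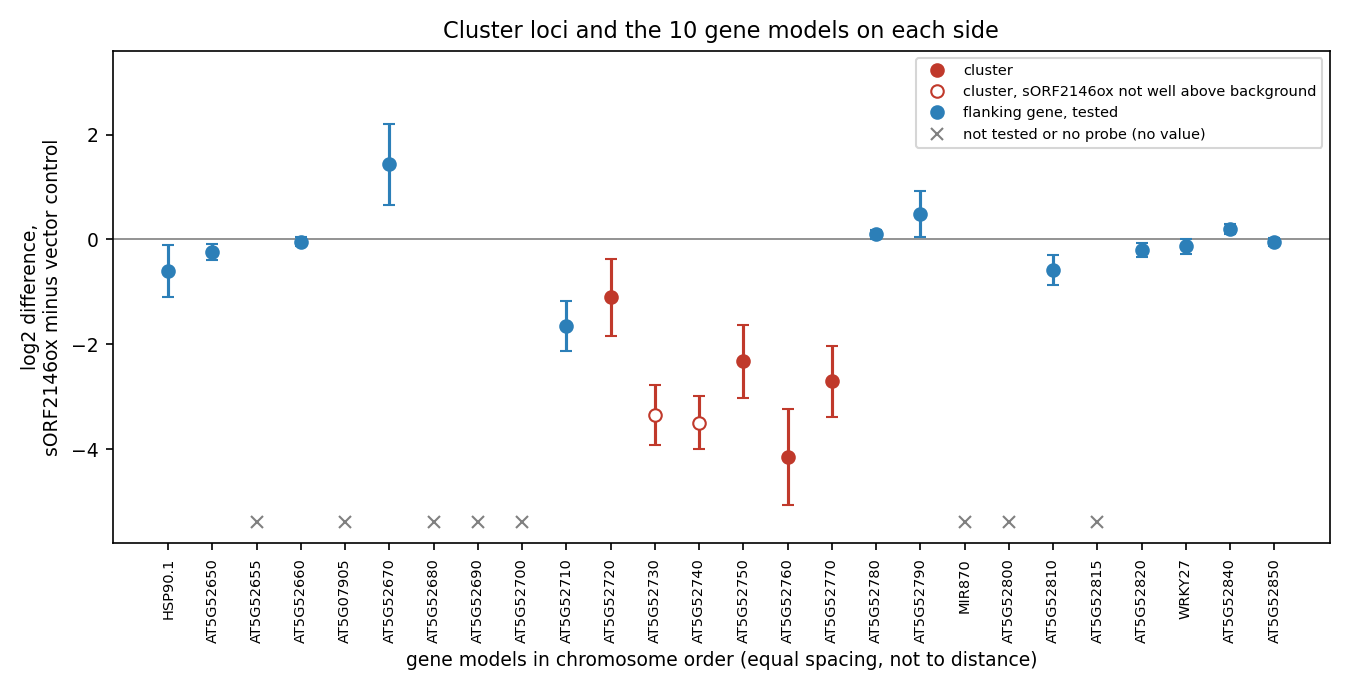
Log2 difference with its SE for the 6 loci and the tested gene models of the 10 on each side, in chromosome order at equal spacing. Open circles are loci not well above background in the overexpressor, and crosses at the foot have no value. AT5G52710 is the one flanking gene below -1, and AT5G52780 on the other side is close to 0.

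Other genes of the heavy-metal-associated class lie elsewhere in the genome, and 16 of 16 listed were tested. The list does not hold every gene with the domain. It was drawn from named genes and from gene symbols and synonyms. Whether the flanking genes, such as AT5G52710 and AT5G52670, carry the domain was not checked, and they are not in the list. Of the 16, 3 fell and 1 rose, beside 2.65% and 2.51% of all genes tested, and the median difference was -0.21. AT5G60800 fell by 1.82 in log2 units, with an SE of 0.27 from 3 arrays per group (limma adjusted p = 0.034). Its levels were -4.37, -4.37 and -4.41 in the overexpressor and -1.92, -2.86 and -2.91 in the control, so the 3 overexpressor arrays lay close together below all controls. FP3, a farnesylated member of the class, fell by 0.64 (SE 0.08, limma adjusted p = 0.028). NAKR3, a relative of the phloem protein NAKR1, fell by 0.49 (SE 0.09, limma adjusted p = 0.044).

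HIPP27, an isoprenylated member, rose by 1.08 (SE 0.19, limma adjusted p = 0.044), so the called genes of this list did not all move in 1 direction. The copper chaperones did not pass. ATX1, which hands copper to the ATPase RAN1, differed by -0.18 (limma adjusted p = 0.24), and CCH by -0.13 (limma adjusted p = 0.39). CCS, which loads copper into superoxide dismutase, differed by 0.35 (limma adjusted p = 0.083). AT5G60800 and FP3 each passed in 11 of 17 alternatives, and NAKR3 and HIPP27 each in 9, with no change of sign in any. Without any 1 of the overexpressor arrays, or without control replicate 2, 0 of the 16 were called. In those fits limma called only 46, 49, 51 and 35 of all genes, so nothing is read from the 0. Without control replicate 3, 2 fell and 0 rose, beside 826 and 365 of all 23637 genes then tested.

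**Figure D5:**
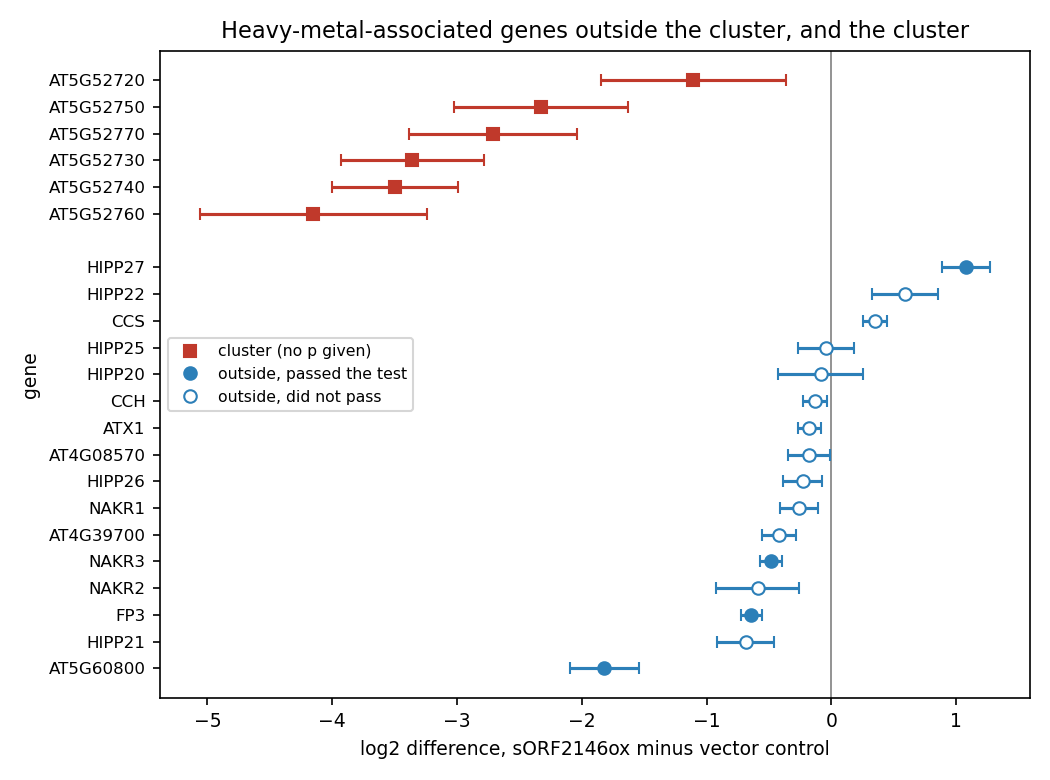
Log2 difference with its SE for the 6 loci of the run (squares, chosen on this contrast and shown with no p) and the 16 heavy-metal-associated genes elsewhere (circles, filled where limma called them). The 16 lie between -1.82 and 1.08, and 13 of them are below 0.

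Among 36 tested genes of copper, zinc and cadmium handling, 2 fell and 1 rose, beside 2.65% and 2.51% of all genes tested. Their median difference was 0.08. The split turned with the settings, to 1 lower and 2 higher with quantile normalization and in the deposited table, and to 1 lower and 3 higher with either offset of 50 or with a trended, robust variance. HMA4, the ATPase that loads zinc into the xylem, fell by 0.94 (SE 0.11, limma adjusted p = 0.026). ZIP1, a zinc transporter, fell by 0.74 (SE 0.13, limma adjusted p = 0.041), but passed in 4 of 17 alternatives and came as close to 0 as -0.0653. PAA2, the copper ATPase of the thylakoid, rose by 0.67 (SE 0.12, limma adjusted p = 0.041). HMA4 and PAA2 each passed in 11 of 17. SPL7, the regulator of the copper deficiency response, differed by 0.06 (limma adjusted p = 0.61), and MT1C, a metallothionein, by 0.12 (limma adjusted p = 0.56). Without any 1 of the overexpressor arrays, or without control replicate 2, 0 of these genes were called, beside only 46, 49, 51 and 35 of all genes.

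Genes of salicylic acid synthesis and pathogen defence are set here because loci of the run are known to respond to salicylic acid and pathogens. The list was chosen with earlier results of these data known, so its direction is given as a description. All 17 tested of 18 listed had a lower mean in the overexpressor, beside 10758 of all 23394 genes tested. The groups did not overlap for 11 of the 17, beside 17.6% of all genes tested. For PR1, overexpressor replicate 1 lay at -8.89. Its replicates 2 and 3, at 2.11 and 2.00, lay above control replicates 2 and 3, at -1.79 and 1.18. The sign of PR1 turned in 1 alternative, to 1.54. Without control replicate 1, FMO1 differed by -0.17 and WRKY38 by -0.25. The median difference of the list was -1.74. Of the 17, 1 fell and 0 rose, beside 2.65% and 2.51% of all genes tested. The gene that fell was WRKY46, a defence transcription factor, at -4.26 (SE 0.58, limma adjusted p = 0.030). The list lay highest on control replicate 1, where its median deviation was 2.39 from the mean of the 6 arrays, against -0.08 and 0.73 on control replicates 2 and 3. On overexpressor replicates 1, 2 and 3 it was -1.06, -0.74 and -0.49. Without control replicate 1 the list median was -1.07, and that of the 6 loci was -2.51, or -1.41 with their bounds in place. The summed signal of the list, not scaled between arrays, ran from 6536 to 11501 in the overexpressor and from 17371 to 61880 in the control. NPR1 was on none of the 6 arrays well above background. The part of this list, of slide or of control replicate 1 in the values of the run was not tested.

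Markers of seed and flower also had lower summed signals in the overexpressor, but these sums are not scaled between arrays. The leaf markers, as a sum, were lower too, at 326106 to 386325 against 439523 to 467763 in the control. The array's 75th percentile of signal ran from 817 to 997 in the overexpressor and from 1098 to 1170 in the control. The summed signal of the 3 seed markers ran from 23.5 to 41.3 in the overexpressor and from 61.8 to 2099 in the control. EM1 was highest on control replicate 1, with control levels of 0.80, -1.77 and -5.47. EM6, another embryo protein gene, had control levels of -4.32, -4.06 and -5.19 and differed by -0.44, or by -0.33 without control replicate 1. The summed signal of the 2 floral markers ran from 13.6 to 20.9 in the overexpressor and from 29.9 to 179 in the control. AP3, a floral organ identity gene, had levels of -6.88, -5.44 and -5.73 in the overexpressor, where 2 of 3 arrays were well above background, and of -5.73, -2.70 and -3.88 in the control, where all 3 were. It differed by -1.91 (SE 0.82, limma adjusted p = 0.18), or by -2.72 without control replicate 1. The part of these markers in the values of the run was not tested.

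The genes whose pattern over the 6 arrays was most like each locus were taken as the 3 with the highest Pearson correlation of scaled log2 level. Among 23387 genes, those at 0.95 or above numbered 23 for AT5G52720, 193 for AT5G52730, 525 for AT5G52740, 246 for AT5G52750, 269 for AT5G52760 and 413 for AT5G52770, so a high value over 6 arrays was common. AT5G52760 was closest to AT5G22520 at 0.9985, to SARD1, a transcription factor of salicylic acid synthesis, at 0.996 and to AT3G13130 at 0.995. These 3 differed by -3.41, -3.26 and -2.56.

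AT5G52750 was closest to AT4G33930 at 0.998, to EDA39 at 0.997 and to AT1G33030 at 0.996. AT5G52740 was closest to AT5G60800 at 0.999, the heavy-metal-associated gene that fell, and then to SYNC3 and AT2G16890, both at 0.997. AT5G52770 was closest to ULT2, AT1G34060 and NAC103, at 0.996, 0.996 and 0.995. AT5G52730 was closest to RAB18 (AT1G43890) at 0.995, to the feature ATRIKEN33066 at 0.993 and to SCPL51 at 0.993. AT5G52720 was closest to CYP81K1 at 0.976, PUP2 at 0.975 and AT1G53890 at 0.970. The overexpressor values of AT5G52730 and AT5G52740 are background signals, so their likeness to other genes mostly restates the difference between the groups. Each correlation includes the difference between the groups, each of which lay on its own slide, and the arrays share a scaling. These are therefore descriptions with no p.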

How the data were processed

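Spot intensity came from Agilent Feature Extraction 11.5.1.1, per the submitters' processing notes. The processed signal is intensity after background subtraction and spatial detrending within the array, per the file headers, and is not normalized between arrays. Raw median intensity of spot and local background, the software's error of the signal and other values, flags of 0 or 1, were also used, per the file headers. The deposited table of the series holds linear intensity with no method given in the sources used here. Its 6 columns hold the same sorted value at 96.3% of ranks (relative tolerance 1e-06), with a median of 120.9.

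The log2 processed signal was reduced by the array's 75th percentile over 35635 probes that are not controls, with spots flagged as outliers set to missing. The 23523 probes that had the flag for signal well above background throughout either group were tested as 23394 genes, each by its probe with the highest mean. The test was limma 3.58.1 (lmFit, then eBayes) under R 4.3.3, and p-values were adjusted by Benjamini-Hochberg over all genes, with a threshold of 0.05. The fit was tested on simulated data. Differences are log2, overexpressor minus vector control. Symbols come from the RefSeq table for TAIR10.1, which 89.6% of tested genes matched. The array design names another build, so no coordinates are given.

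The 6 loci, the lists and the tests were chosen with earlier results of these data known. The genes named are the loci, the flanking genes that were nearest or called, list members that were called or had the smallest p, and the 3 genes most alike to each locus. Other members, such as CCH, MT1C and SPL7, were chosen after their values were seen. Alternatives covered the background, normalization, filter, probe summary, variance model, the replicate number as a block and each array left out. Figures were drawn with matplotlib 3.10.9.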

Additional observations from a re-analysis of the deposited data

How the results depend on the processing

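All 6 loci were lower in the overexpressor under every alternative that tested them. The fits that add an offset of 50 to signals moved dim loci most. With normexp and quantile normalization the differences were -0.35 for AT5G52730, -0.29 for AT5G52740 and -0.84 for AT5G52770, and with background subtraction they were -0.20, -0.12 and -0.84. An offset of this size draws dim signals together by construction. The count of the 6 loci called was 1 in each of these 2 settings, AT5G52760 in both, 0 with no filter on dim probes, 0 with the filter requiring all arrays, which leaves 3 loci, 0 with the replicate block, and 0 to 1 with 1 array left out. For the flanking genes it stayed at 0 throughout. For the other heavy-metal-associated genes it was 0 with no filter, 0 with the replicate block and 0 to 3 with 1 array left out, and for the metal handling genes 0, 0 and 0 to 2. For the salicylic acid and defence genes it was 2 with normexp, 2 with background subtraction, 0 with no filter, 0 with the replicate block and 0 to 3 with 1 array left out. Over all genes, 1860 were called with normexp (665 lower and 1195 higher), 188 with no filter (133 and 55), 14 with the replicate block, and 35 to 1191 with 1 array left out, with the low values at 46, 49 and 51 without overexpressor replicate 1, 2 and 3 and 35 without control replicate 2. Background subtraction called 534 lower and 1013 higher. The cause of these changes was not tested. The labels do not say that replicate numbers pair the samples. For replicate numbers 1, 2 and 3 the deviations of arrays with the same number had correlations of -0.0857, -0.00047 and -0.0226, and 0 of 6 arrays correlated best with its own number. Slide could not enter the fit, since each slide held 1 group. Signal over background limits AT5G52730 and AT5G52740 to approximate bounds.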
